A study of Sus scrofa with 20 samples.

Results

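The 5 genes described here encode enzymes that break down peroxides: peroxiredoxin 2 (PRDX2, ENSSSCG00000013736), peroxiredoxin 3 (PRDX3, ENSSSCG00000010682), glutathione peroxidase 3 (GPX3, ENSSSCG00000017092), catalase (CAT, ENSSSCG00000013302) and the peroxiredoxin-like protein FAM213A (ENSSSCG00000010340, now also named PRXL2A). They were taken by these Ensembl identifiers from the testis read counts of 20 boars, which list 22059 genes in at least 1 breed. All 5 were counted in every boar, with 538 to 26534 reads per gene and boar, and all passed the filter on low counts in both breeds. The testis samples came from Norwegian artificial insemination boars of the Landrace and Duroc breeds that were chosen for an extreme sperm DNA fragmentation index (DFI), the percentage of denatured DNA in a flow cytometry assay of sperm chromatin. The groups were 5 Landrace boars with low DFI (0.62 to 1.7%), 4 Landrace boars with high DFI (5.58 to 8.04%), 5 Duroc boars with low DFI (1.05 to 1.13%) and 6 Duroc boars with high DFI (4.13 to 5.63%), with 1 library per boar. No boar was treated, all were fed the same diet, the boars of the study varied widely in age at semen collection, and the age of each boar is not given in the sources used here. The boars were selected by DFI and not assigned to it, so anything else that differs between high and low DFI boars cannot be told apart from DFI. Library totals were 18086448 to 51782156 counts, and the smallest was that of Landrace high DFI replicate 1. The 4 Landrace high DFI boars and Landrace low DFI replicates 1 and 2 carry sample numbers of a single consecutive series, while the other 14 boars, including all Duroc, carry other numbers. The labels do not say what the numbers stand for.

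Hydrogen peroxide is produced in every cell by mitochondria, oxidases and the breakdown of fatty acids in peroxisomes, and it is kept low by several enzymes in parallel. Peroxiredoxins reduce it with a reactive cysteine that is recharged by thioredoxin, glutathione peroxidases reduce it with glutathione, and catalase splits it into water and oxygen inside peroxisomes. In the testis, the Leydig cells between the tubules make testosterone with cytochrome P450 enzymes that leak reactive oxygen, and the germ cells in the tubules have membranes and DNA that are easily oxidized. A piece of whole testis holds all of these cells, so a lower or higher level of a transcript in such bulk RNA can come from the number of cells of a type or from the RNA per cell, and these cannot be told apart here. The libraries carried the markers of testis: 7 spermatid genes summed to 9999 to 18225 CPM (counts scaled to a common library size), and 4 Leydig cell genes to 782 to 12083 CPM over the 20 boars.

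The genes were chosen because the study called them between high and low DFI boars, PRDX2, CAT and FAM213A in both breeds, GPX3 in Landrace and PRDX3 in Duroc. Their high versus low differences in those breeds are therefore given as a description without a test. All levels are CPM after normalization by the trimmed mean of M values (TMM), a scale that allows a gene to be compared between boars but not with another gene, since gene length is not taken into account.

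PRDX2 is a peroxiredoxin of the cytosol and one of the main antioxidant proteins of red blood cells. In Landrace it measured 101.5, 81.2, 67.8, 102.8 and 111.0 CPM in the low DFI replicates 1 to 5, and 153.7, 313.5, 220.1 and 148.8 CPM in the high DFI replicates 1 to 4. All 4 high DFI boars were above all 5 low DFI boars. In Duroc it was at 53.6, 106.9, 43.3, 138.4 and 84.7 CPM in the low DFI boars and at 112.7 to 156.9 CPM, with a median of 145 CPM, in the high DFI boars. Here the groups overlapped, because Duroc low DFI replicate 4 lay inside the range of the high DFI boars. Of the red blood cell markers only HBB, ALAS2 and SLC4A1 had an identifier, and alpha globin was among those without. These 3 summed to 1.83 to 20.8 CPM over the 20 boars. The part of blood in the PRDX2 differences was not tested. High over low DFI, the log2 fold change was 1.17 (SE 0.22) in Landrace and 0.70 (SE 0.25) in Duroc.

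PRDX3 is a mitochondrial peroxiredoxin. Its level in Landrace was 148.3, 158.0, 108.9, 185.7 and 193.8 CPM in the low DFI boars and 202.5, 616.2, 320.6 and 197.8 CPM in the high DFI boars. The groups did not overlap, but 2 high DFI boars were only just above the highest low DFI boar, and replicate 2 was far above all others. In Duroc it measured 90.7, 163.3, 80.7, 222.1 and 151.5 CPM at low DFI and 200.3 to 266.5 CPM, with a median of 250.3 CPM, at high DFI. Duroc low DFI replicate 4 again overlapped the high DFI group. In Duroc the log2 fold change was 0.75 (SE 0.22).

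The study did not choose PRDX3 on the Landrace boars, so its difference there could be tested. The log2 fold change was 1.07 (SE 0.31, 95% confidence interval 0.39 to 1.76), with 4 of 4 high DFI boars above every low DFI boar, and it did not pass after adjustment over all genes (edgeR quasi-likelihood test, adjusted p = 0.126). With this test 0 of 14519 genes passed in Landrace (0%), while 2417 had an unadjusted p under 0.05. The likelihood ratio test of edgeR, run here in a later version than in the study, which did not list PRDX3 in Landrace, called 767 genes (5.28%) and gave PRDX3 an adjusted p of 0.00278, and DESeq2 called 842 genes (6.04% of those with an adjusted p) and gave it 0.0926. Without Landrace high DFI replicate 2 the log2 fold change was 0.60, with an adjusted p of 0.317 in the quasi-likelihood test.

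GPX3 is a selenium-containing glutathione peroxidase that is secreted into plasma and other extracellular fluids. In Landrace it measured 26.0, 26.1, 26.7, 101.7 and 37.3 CPM in the low DFI boars and 83.5, 145.2, 102.2 and 64.3 CPM in the high DFI boars. Low DFI replicate 4 stood apart from the other 4 low DFI boars and lay above 2 of the 4 high DFI boars. The log2 fold change in Landrace was 1.18 (SE 0.42), and it was 1.77 without that boar.

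In Duroc, where the study did not choose GPX3, the low DFI boars were at 24.4, 40.2, 14.8, 79.6 and 47.5 CPM, and the high DFI boars at 46.0 to 118.8 CPM with a median of 54.2 CPM. The groups overlapped: 4 of the 6 high DFI boars were below Duroc low DFI replicate 4. The difference, 0.73 on the log2 scale (SE 0.39, 95% confidence interval -0.11 to 1.58), did not pass (quasi-likelihood test, adjusted p = 0.295). In Duroc 2 of 14666 genes passed (0.0136%), while 3107 had an unadjusted p under 0.05. The likelihood ratio test gave an adjusted p of 0.204 and DESeq2 0.327. Without Duroc low DFI replicate 4 the log2 fold change was 1.11, with an adjusted p of 0.146. The interval allows both no difference and a difference as large as that in Landrace.

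CAT encodes catalase, the peroxisomal enzyme that removes hydrogen peroxide at high concentrations. Its level in Landrace was 67.0, 80.3, 81.1, 93.7 and 99.3 CPM at low DFI and 118.8, 226.8, 176.0 and 112.1 CPM at high DFI. In Duroc it measured 58.7, 93.7, 48.1, 98.5 and 90.5 CPM at low DFI and 107.0 to 132.2 CPM, with a median of 119 CPM, at high DFI. No CAT value of a high DFI boar overlapped the low DFI boars in either breed, which held for none of the other 4 genes. Its log2 fold change was 0.91 (SE 0.20) in Landrace and 0.60 (SE 0.17) in Duroc.

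FAM213A is a peroxiredoxin-like protein with a thioredoxin-like fold, for which a redox-regulating role is known in bone marrow cells. In Landrace it measured 138.1, 113.4, 100.4, 113.9 and 116.3 CPM at low DFI and 180.2, 354.4, 292.6 and 179.5 CPM at high DFI, with no overlap. In Duroc the low DFI boars were at 75.3, 99.5, 67.3, 109.2 and 116.1 CPM and the high DFI boars at 115.3 to 151.0 CPM with a median of 135 CPM. The Duroc groups touched at a single pair of boars, low DFI replicate 5 and high DFI replicate 6. The log2 fold change was 1.11 (SE 0.19) in Landrace and 0.53 (SE 0.14) in Duroc.

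**Figure D1:**
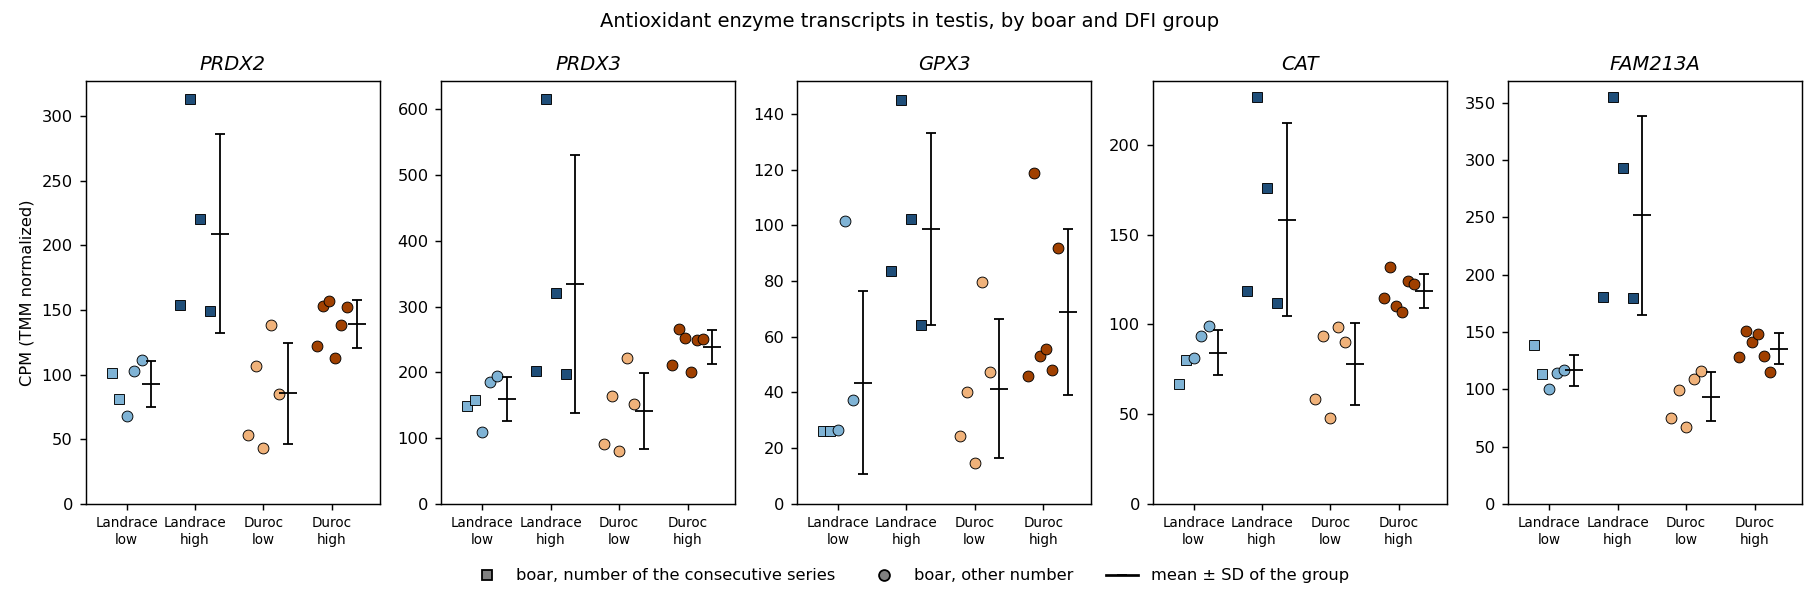
Level of each gene (vertical axis, TMM-normalized CPM, from 0) in the 20 boars by breed and DFI group, with each boar as a point (squares for the consecutive sample numbers, circles for other numbers) and the mean ± SD of the group beside it. Landrace high DFI replicate 2 is the highest of all boars for all 5 genes, and the Landrace low DFI boar at 101.7 CPM stands apart for GPX3.

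High and low DFI boars did not overlap for 4 of the 5 genes in Landrace (PRDX2, PRDX3, CAT and FAM213A) and for 1 in Duroc (CAT), each time with high DFI above. Among all genes tested, the same was true of 4.6% in Landrace and 1.9% in Duroc. For all but PRDX3 in Landrace these counts follow from how the genes were chosen and are read no further. The median log2 fold change of the 5 genes was 1.11 in Landrace and 0.70 in Duroc, beside -0.01 over 14519 genes and 0.01 over 14666 genes. Except for PRDX3 in Landrace and GPX3 in Duroc, the genes were chosen on these differences, so the medians are a description only. The interaction of breed and DFI group, fitted over all 20 boars, passed for 0 of 14636 genes in the quasi-likelihood test, with 364 at an unadjusted p under 0.05, and for 2 by the likelihood ratio test and 2 by DESeq2, none of them among the 5. A smaller difference in Duroc than in Landrace was not shown for any of the 5 genes.

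The same boars were high or low for several genes. Landrace high DFI replicate 2 had the highest level of all 5 genes in its group, replicate 3 the next highest of all 5, and replicate 4 the lowest of all 5. Duroc low DFI replicate 3 was lowest for all 5 genes, and Duroc low DFI replicate 4 was highest for 4. In Duroc high DFI boars the levels were closer together, with a coefficient of variation of 8.04% for CAT, 10.1% for FAM213A, 11.04% for PRDX3 and 13.2% for PRDX2, against 29.3%, 22.8%, 40.8% and 45.6% in the Duroc low DFI boars. GPX3 varied more widely in both Duroc groups, at 43.2% in the high and 60.4% in the low DFI boars. In Landrace the opposite held for PRDX2 (36.8% at high, 19.1% at low DFI), PRDX3 (58.8% and 21.2%) and FAM213A (34.4% and 11.7%). CAT was also more variable at high than at low DFI in Landrace, and GPX3 was less variable.

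The breeds were compared at each DFI level in a fit of all 20 boars. At high DFI, FAM213A was lower in Duroc than in Landrace, with group means of 135.3 ± 13.6 CPM (SD, n = 6) and 251.7 ± 86.7 CPM (SD, n = 4) and no overlap, as was the case for 3.94% of genes in that direction. The log2 fold change of Duroc over Landrace was -0.90 (SE 0.17, 95% confidence interval -1.26 to -0.53), and it passed in the quasi-likelihood test (adjusted p = 0.00519). It also passed under every alternative tried, with an adjusted p of 8.68e-06 to 0.0255. FAM213A was chosen on its high versus low DFI difference in each breed, and the same high DFI boars entered that choice. The breed comparison at high DFI is therefore not independent of how the gene was chosen, and its p-values are read with that limit. In this comparison 5.73% of the 14636 genes tested passed, 2.85% with Duroc below Landrace. The other 4 genes had lower means in Duroc too, with log2 fold changes of -0.42 (CAT), -0.49 (PRDX3), -0.52 (GPX3) and -0.59 (PRDX2), but did not pass (adjusted p from 0.178 to 0.511). Without Landrace high DFI replicate 2 these values were -0.20 (CAT), -0.01 (PRDX3), -0.28 (GPX3) and -0.33 (PRDX2).

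All Landrace high DFI boars belong to the consecutive number series and no Duroc boar does, so breed and number series cannot be told apart at high DFI. Within the Landrace low DFI boars, FAM213A was at 113.4 and 138.1 CPM in the 2 boars of the series and at 100.4 to 116.3 CPM in the 3 others.

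At low DFI none of the 5 genes passed between breeds, while 4.92% of all genes tested did. The log2 fold changes of Duroc over Landrace were -0.08 (GPX3, SE 0.43), -0.11 (CAT, SE 0.19), -0.12 (PRDX2, SE 0.26), -0.17 (PRDX3, SE 0.28) and -0.32 (FAM213A, SE 0.17), with adjusted p from 0.348 to 0.952 in the quasi-likelihood test. For FAM213A the 95% confidence interval was -0.68 to 0.05, which overlaps the interval at high DFI. The interaction gave FAM213A a log2 value of -0.58 (SE 0.25) and an adjusted p of 1.0 (0.0295 before adjustment), so the breed difference was not shown to depend on DFI.

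**Figure D2:**
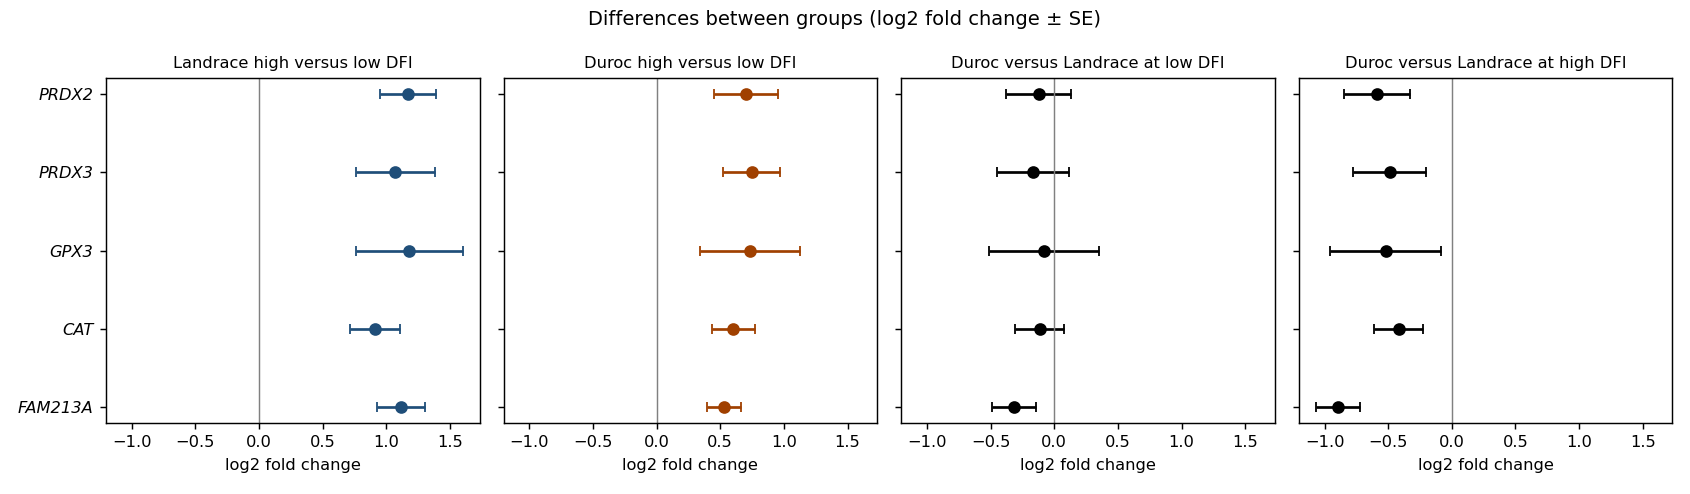
Log2 fold change (horizontal axis) of each gene in the 4 comparisons, as points with bars of ± SE from the edgeR fits. High over low DFI is positive for all 5 genes in both breeds, and Duroc over Landrace at high DFI is negative for all 5, from -0.90 for FAM213A to -0.42 for CAT.

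The DFI of each boar gave a finer comparison within groups. In the 6 Duroc high DFI boars, PRDX3 was 266.5 and 252.0 CPM in the boars with a DFI of 4.13 and 4.14%, 249.1 and 251.4 CPM at 4.69 and 4.77%, and 210.9 and 200.3 CPM at 5.36 and 5.63%. PRDX2 went the same way, with 153.2 and 156.9 CPM at the lowest and 122.0 and 112.7 CPM at the highest DFI. The levels of both genes were thus lower where DFI was higher, the opposite of the difference between the high and low DFI groups.

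Pearson's r with DFI was -0.94 for PRDX2 and -0.94 for PRDX3 (exact permutation test over 720 pairings, two-sided, p = 0.00833 and p = 0.00417, n = 6), and Spearman's rho was -0.89 and -0.94 (exact permutation p = 0.0333 and p = 0.0167, n = 6). Over all 14636 genes, 0.253% had an r at or below that of PRDX2, and after adjustment over all of them neither gene passed (exact permutation test, adjusted p = 0.782 for both). Without the 2 boars with the highest DFI, r was -0.61 and -0.65 over 4 boars, so the relation rests in part on those boars. Both were also the Duroc high DFI boars with the lowest summed Leydig cell markers, at 3265 and 4359 CPM against 5168 to 6904 CPM in the other 4. For most of these boars the study measured DFI in a single ejaculate.

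CAT (r = -0.55, rho = -0.66), GPX3 (r = -0.48, rho = -0.37) and FAM213A (r = -0.15, rho = -0.37) had a weaker relation to DFI in the same boars (exact permutation test for r, p = 0.256, p = 0.304 and p = 0.743, n = 6, 5 genes tested; adjusted p over all genes 0.935, 0.935 and 0.96). Without the same 2 boars their r was 0.15, -0.19 and -0.92. In the 4 Landrace high DFI boars, too few for a correlation, the boar with the highest DFI (8.04%) was lowest for all 5 genes, and the boars with 6.41 and 7.34% were the 2 highest. The low DFI groups held 5 boars each, too few for a correlation, and DFI spanned 0.62 to 1.7% in Landrace and 1.05 to 1.13% in Duroc.

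**Figure D3:**
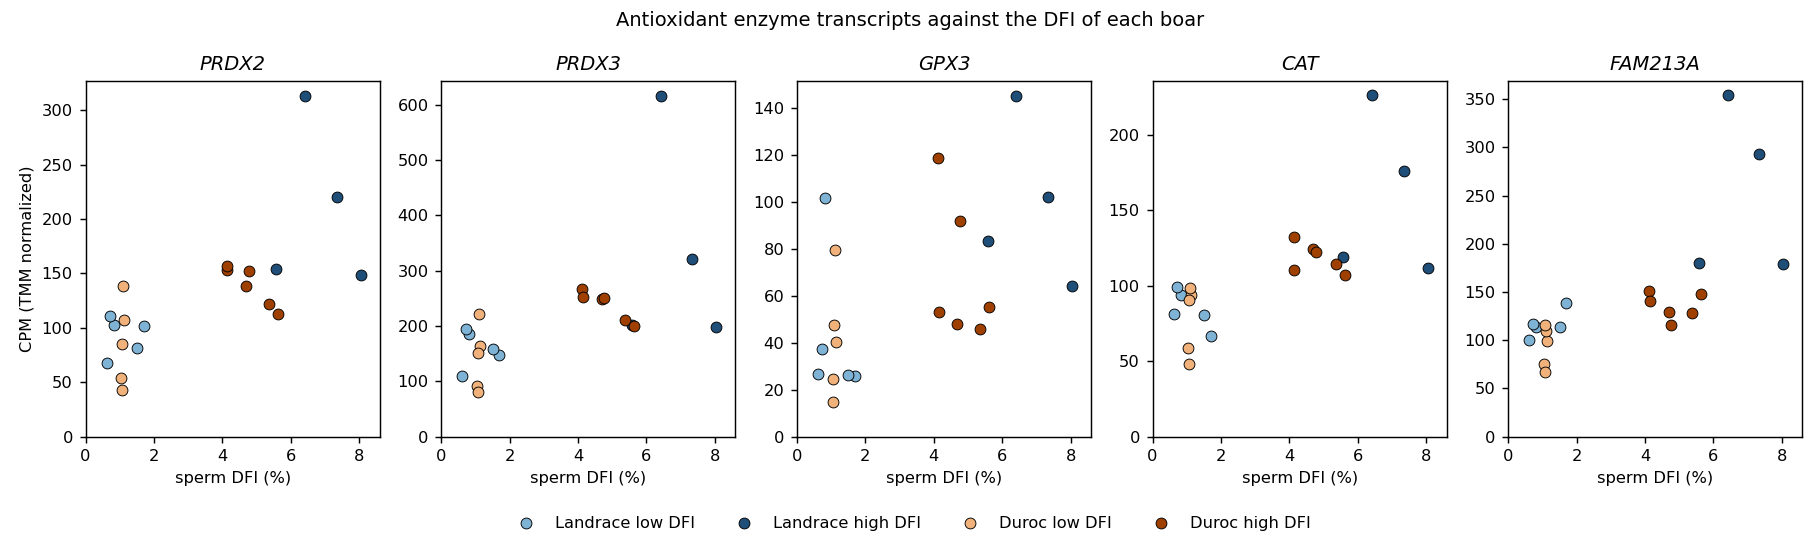
Level of each gene (vertical axis, TMM-normalized CPM, from 0) against the DFI of the boar (horizontal axis, percent), with a point per boar coloured by group. Among the Duroc high DFI boars PRDX2 falls from 156.9 to 112.7 CPM and PRDX3 from 266.5 to 200.3 CPM towards higher DFI, and the Landrace boar at 8.04% is the lowest of its group.

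To see whether the 5 genes varied together apart from the DFI groups, the mean of each group was taken off the log2 CPM and the genes were correlated over the 20 boars. All 10 pairs were positive, from r = 0.53 (GPX3 and FAM213A) to r = 0.95 (PRDX2 and PRDX3), with a median of 0.78 and rho from 0.60 to 0.94. All 10 pairs passed for r and for rho (permutation of boars within groups, two-sided, adjusted over the 10 pairs), with adjusted p for r from 0.0001 to 0.0195. The p of PRDX2 and PRDX3 before adjustment, 1e-05, was the smallest that 100000 permutations can give. For GPX3 and FAM213A the pair no longer passed without Landrace high DFI replicate 2 (r = 0.48) or Duroc low DFI replicate 3 (r = 0.41). Without the 2 most distant boars of the first gene of a pair, r was 0.56 to 0.94. Over all genes, the median r was close to 0 with each of the 5 genes, and r was over 0.8 for 2.37% of genes with PRDX3, 1.49% with CAT, 1.43% with PRDX2, 0.355% with FAM213A and 0.116% with GPX3.

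The genes with a symbol whose variation within groups was most like each of the 5 were named by a fixed rule, 3 per gene among 9649. For PRDX2 they were DHRS4, a peroxisomal short-chain dehydrogenase (r = 0.96), CD63, a tetraspanin of lysosomes (r = 0.95), and PRDX3 itself (r = 0.95). For PRDX3 they were PCBD1, a pterin dehydratase (r = 0.97), OXCT1, the mitochondrial enzyme of ketone body use (r = 0.96), and BCKDHB, a subunit of the branched-chain keto acid dehydrogenase (r = 0.96). CAT varied most like the lysosomal enzymes CTSH (r = 0.94) and DNASE2 (r = 0.93) and the transporter MFSD10 (r = 0.93). FAM213A varied most like LIPA, the lysosomal acid lipase (r = 0.87), SUCLG2, a mitochondrial succinyl-CoA ligase subunit (r = 0.86), and SMIM19 (r = 0.86). GPX3 was less close to any gene, with GRN, the progranulin precursor (r = 0.86), ARAF, a RAF kinase (r = 0.84), and VIM, the intermediate filament vimentin (r = 0.84), at the top.

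Levels of Leydig cell markers varied with those of the 5 genes. The 4 markers CYP11A1 and CYP17A1 (steroid-synthesizing P450 enzymes), INSL3 (a Leydig cell hormone) and LHCGR (the luteinizing hormone receptor) had log2 fold changes of high over low DFI of 1.21 to 1.50 in Landrace. In Duroc they were 0.75 to 1.23, and no marker passed in either breed (quasi-likelihood test, adjusted p from 0.11 to 0.128 in Landrace and 0.128 to 0.397 in Duroc). The likelihood ratio test called all 4 in Landrace and 2 in Duroc (5.28% and 2.56% of all genes tested). DESeq2 called 3 and 0 (6.04% of the genes with an adjusted p in each breed). The study itself lists CYP11A1 as called in both breeds from these boars, so such calls are not independent evidence. No marker was at the lowest deposited value in a whole group. Their summed level was 1246 to 4157 CPM in Landrace low, 4467 to 12083 CPM in Landrace high, 782 to 5944 CPM in Duroc low and 3265 to 6904 CPM in Duroc high DFI boars. The highest sum of all was in Landrace high DFI replicate 2 and the lowest in Duroc low DFI replicate 3, the boars that were highest and lowest for all 5 genes in their groups.

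With group means taken off, r with the summed Leydig markers was 0.95 for PRDX2, 0.89 for PRDX3, 0.82 for CAT, 0.78 for GPX3 and 0.64 for FAM213A over 20 boars, with rho of 0.94, 0.91, 0.78, 0.76 and 0.57. The first 4 passed over the 45 relations of 5 genes and 9 marker lists (permutation within groups, two-sided, adjusted p = 0.000225, 0.000225, 0.00345 and 0.0111 for r), and FAM213A did not (adjusted p = 0.0837). Without the 2 boars most distant in the markers r was 0.92, 0.87, 0.72, 0.65 and 0.52. None of the 5 genes passed with the summed markers of any of the other 8 lists. With spermatid markers r ranged from -0.26 to 0.06, and with Sertoli cell markers from -0.31 to -0.00. With spermatocyte markers it was -0.25 to -0.10 and with spermatogonium markers -0.42 to 0.15. All 5 genes had a positive r with macrophage (0.33 to 0.59) and endothelial cell markers (0.36 to 0.57). The same held for peritubular (0.23 to 0.39) and red blood cell markers (0.06 to 0.46). The smallest adjusted p for r among these lists was 0.0787 (GPX3 with macrophage markers, r = 0.55, permutation within groups). How many of all genes varied as closely with the Leydig markers was not computed. The relation is therefore not shown to be particular to the 5 genes. The part of these cell types in the high versus low DFI differences was not tested.

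For the breed difference of FAM213A at high DFI, Leydig markers overlapped between the breeds, and 3 of 4 were lower in Duroc, by log2 fold changes of -0.31 (CYP11A1), -0.36 (INSL3) and -0.44 (CYP17A1), with 0.19 for LHCGR (adjusted p from 0.622 to 0.806). Landrace high DFI replicates 1 and 4 had summed Leydig markers of 4981 and 4467 CPM, inside the Duroc high range. In them FAM213A was at 180.2 and 179.5 CPM, above all 6 Duroc boars, whose highest value was 151.0 CPM. These Landrace boars carry numbers of the consecutive series, and no Duroc boar does. Any part of Leydig cells in this breed difference was not tested. The haemoglobin gene HBB was lower in Duroc, with a log2 fold change of -2.90 at high and -2.62 at low DFI, and its part in the breed differences was not tested.

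**Figure D4:**
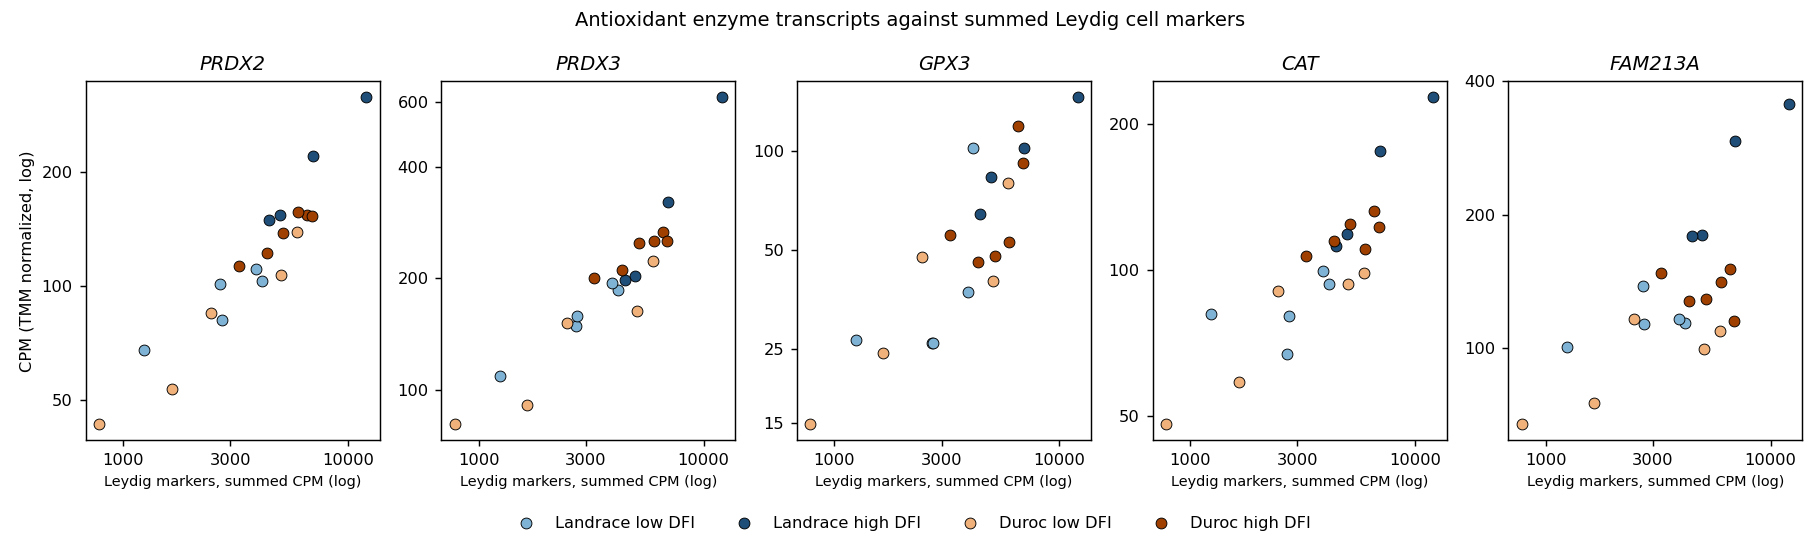
Level of each gene (vertical axis, TMM-normalized CPM, log scale) against the summed CPM of 4 Leydig cell markers (horizontal axis, log scale), with a point per boar coloured by group. PRDX2 and PRDX3 follow the marker sum over all 20 boars, and for FAM213A the 4 Landrace high DFI boars lie above all Duroc boars. The marker sums of Landrace high DFI replicates 2 and 3 are above those of all Duroc boars.

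Markers of other cells were compared by DFI in the same way. The 5 peritubular myoid cell, 3 macrophage and 3 endothelial cell markers all had positive log2 fold changes in both breeds, with medians of 0.74, 1.25 and 0.96 in Landrace and 0.37, 0.36 and 0.56 in Duroc. All 7 spermatid markers had negative ones, with medians of -0.19 in Landrace and -0.29 in Duroc. The red blood cell marker tested in both breeds, HBB, had 0.72 and 0.42. The medians of the 6 Sertoli cell, 5 spermatocyte and 3 tested spermatogonium markers were between -0.12 and 0.11 in both breeds. In the quasi-likelihood test none of 37 markers passed by DFI group in Landrace and none of 38 in Duroc. The likelihood ratio test called 11 in Landrace and 3 in Duroc, all higher at high DFI. Over all genes tested it called 5.28% in Landrace and 2.56% in Duroc. Among the markers called were 2 of 3 macrophage, 2 of 3 endothelial and 3 of 5 peritubular markers in Landrace and 1 macrophage marker in Duroc. DESeq2, which called 6.04% of the genes with an adjusted p in each breed, called 11 markers in Landrace, all higher at high DFI, and 3 in Duroc. Of those 3, 1 macrophage marker was higher at high DFI, and 1 spermatid and 1 spermatocyte marker were lower. The study itself called the macrophage marker CSF1R in both breeds and the peritubular marker ACTA2 in Landrace from these boars. The calls given here are therefore not independent evidence. In Landrace the macrophage median was of a similar size to that of the Leydig cell markers (1.27). The 3 macrophage markers ranged from 0.09 to 1.34 there, and they summed to only 2.77 to 10.3 CPM in the Landrace boars. The part of these other cells in the levels of the 5 genes was not tested beyond the correlations above.

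Genes around the 5 enzymes were taken from 10 lists, of which 61 genes were tested in Landrace and 62 in Duroc. In the quasi-likelihood test 0 of them passed between high and low DFI in either breed, with 17 higher and 3 lower at an unadjusted p under 0.05 in Landrace and 17 higher and 4 lower in Duroc. Over all genes tested, 12.1% were higher and 4.53% lower at that level in Landrace, and 11.3% and 9.89% in Duroc. The likelihood ratio test called 7 of the listed genes in Landrace (5.28% of all genes there) and 5 in Duroc (2.56%). DESeq2 called 7 and 10 of them (6.04% of the genes with an adjusted p in each breed).

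The other peroxiredoxins tested did not pass in either breed, and their fold changes were small. PRDX1, PRDX4, PRDX5 and PRDX6 had log2 fold changes of 0.08, -0.18, -0.13 and -0.09 in Landrace and 0.03, -0.20, -0.09 and -0.05 in Duroc, with SE from 0.06 to 0.09. The interval of PRDX1, for instance, was -0.08 to 0.23 in Landrace and -0.17 to 0.23 in Duroc. The tested glutathione peroxidases beside GPX3 were GPX4, the phospholipid peroxidase that is abundant in sperm (-0.20 and -0.10), and GPX8, of the endoplasmic reticulum (0.28 and 0.33). The superoxide dismutases SOD1 and SOD3, which produce hydrogen peroxide from superoxide, had 0.33 and 0.36 in Landrace and 0.18 and 0.20 in Duroc.

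Among the enzymes that recharge peroxidases, SRXN1, the sulfiredoxin that repairs overoxidized peroxiredoxins, had log2 fold changes of 1.67 (SE 0.55) in Landrace and 0.94 (SE 0.45) in Duroc. TXNRD2, the mitochondrial thioredoxin reductase, had 0.40 (SE 0.18) and 0.50 (SE 0.12), and GSR, the glutathione reductase, 0.86 (SE 0.33) and 0.68 (SE 0.33). The cytosolic thioredoxin reductase TXNRD1 had -0.02 and 0.04, and mitochondrial thioredoxin TXN2 had -0.01 and 0.04. None of these passed after adjustment (quasi-likelihood test, adjusted p from 0.113 to 0.988), and these 5 of the 15 genes of the thioredoxin and glutathione systems were picked after their values were seen. Over the whole lists, 4 of 10 thioredoxin system genes were above 0 in Landrace and 6 of 10 in Duroc, with medians of -0.01 and 0.04, and all 5 genes of glutathione synthesis and recycling were above 0 in both breeds, with medians of 0.28 and 0.21.

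The remaining lists were of enzymes and factors around peroxide metabolism. The 7 regulators and targets of NRF2, the transcription factor of the antioxidant response, had a median log2 fold change of 0.44 in Landrace and 0.30 in Duroc, with 5 of 7 above 0 in each. Among enzymes that produce hydrogen peroxide, 7 of 8 were above 0 in Landrace and 6 of 9 in Duroc (medians 0.57 and 0.31). For 12 genes of peroxisome assembly, where CAT resides, the medians were 0.10 and 0.10, and for 6 glutathione transferases 0.03 and 0.15. The 5 genes of selenium supply and selenoprotein synthesis, on which GPX3 depends, had medians of -0.06 and 0.02. No gene of these lists passed in the quasi-likelihood test.

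The 3 related genes with the smallest p in each breed were given by the naming rule. In Landrace these were HMOX1, the inducible haem oxygenase (log2 fold change 1.32, SE 0.34, adjusted p = 0.109), ACOX3, a peroxisomal acyl-CoA oxidase that yields hydrogen peroxide (1.06, SE 0.28, adjusted p = 0.112), and DUOX2, an NADPH oxidase that releases hydrogen peroxide (0.87, SE 0.24, adjusted p = 0.113). In Duroc they were GSTP1, a glutathione transferase (0.38, SE 0.08), ACOX2, an acyl-CoA oxidase of bile acid synthesis (0.73, SE 0.16), and NME8, a thioredoxin domain protein of sperm (-0.42, SE 0.09), each with an adjusted p of 0.112. None passed in the quasi-likelihood test, while the likelihood ratio test and DESeq2 called all 6. Without Landrace high DFI replicate 2, HMOX1 was at 0.73 and ACOX3 at 0.70. GSTP1 is also on the study's own list of called genes from these boars. So is MAOB, of the hydrogen peroxide producing enzymes, in both breeds. Calls of such genes are not independent evidence.

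**Figure D5:**
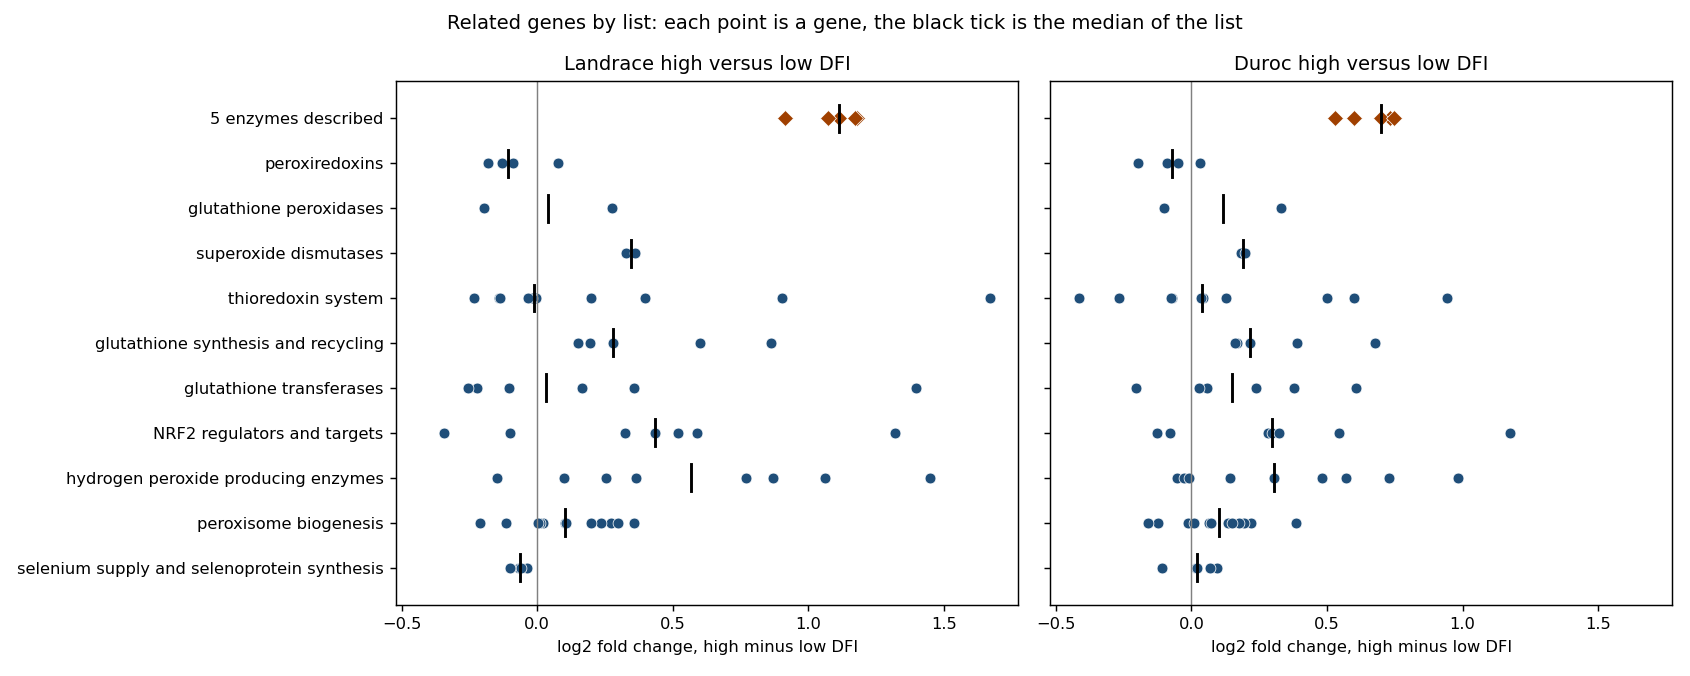
Log2 fold change of high over low DFI (horizontal axis) for the genes of the 10 related lists in Landrace (left) and Duroc (right), with a point per gene and a black tick at the median of a list, and the 5 enzymes described in the top row. The 5 enzymes, which were chosen on this difference, lie from 0.91 to 1.18 in Landrace and 0.53 to 0.75 in Duroc, while the 4 other peroxiredoxins lie between -0.20 and 0.08.

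Between breeds, 1 of 62 related genes passed at low DFI and 3 at high DFI, no larger a share than over all genes tested (4.92% and 5.73%). At low DFI this was PSTK, a kinase needed to make selenocysteine (-0.39 in Duroc over Landrace, SE 0.10, adjusted p = 0.0248, quasi-likelihood test). PSTK was at 4.55 to 5.16 CPM in Duroc and 5.71 to 7.04 CPM in Landrace, and its adjusted p was above 0.05 when any of 6 low DFI boars was left out and in the likelihood ratio test (0.12). At high DFI, MGST3, a microsomal glutathione transferase, was higher in Duroc (0.52, SE 0.11, adjusted p = 0.00721), at 31.9 to 46.7 CPM against 20.9 to 27.03 CPM. DUOX2 (-1.31, SE 0.32, adjusted p = 0.0211) and PEX2, a protein of peroxisome assembly (-0.71, SE 0.18, adjusted p = 0.0212), were lower. DUOX2 no longer passed without Landrace high DFI replicate 1 (adjusted p = 0.0728), and PEX2 without Landrace high DFI replicate 2 or 4 (0.0856 and 0.0554). None of the 4 other peroxiredoxins passed in either breed comparison.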

How the data were processed

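RNA of 1 testis piece from each of 20 boars was read as 50-base single-end reads from non-stranded TruSeq libraries. The authors used TopHat 2.0.12 with pig genome build 10.2, sorted the alignments with SAMtools 1.1 and counted reads per Ensembl gene with HTSeq without strand, so reads of overlapping genes on opposite strands cannot be told apart. The deposited values are these raw read counts, 1 table per boar, and the lowest value in the tables is 1. Whether 0 was replaced or 1 added is not stated, and the lowest count of the 5 genes was 538. The files give no positions or gene lengths. Symbols came from a reference table (11724 genes) and from identifier and symbol pairs in the study's supplementary lists (78 genes).

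The statistics came from edgeR 4.0.16 under R 4.3.3. As in the study, each breed had its own model, limited to genes that exceeded 1 CPM in 5 or more Landrace or 6 or more Duroc boars. Breeds were compared in a model of all 20 boars, with at least 10 boars at the minimum. Libraries were normalized by TMM, genes were tested by quasi-likelihood, and p was adjusted over all genes (Benjamini-Hochberg, threshold 0.05). The scripts were tested on simulated data. Levels and correlations use CPM of the joint model, with 0.5 CPM added before log2. Correlations with DFI were adjusted over all genes in place of the 5. Alternatives were edgeR's likelihood ratio test (tagwise dispersion), DESeq2 1.42.0, median-of-ratios (RLE) normalization, no filter, the Landrace number series as a covariate, subsets by number series, and each boar left out. The correlations with marker sums were added after seeing the data.

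The 5 genes, the 10 related lists (66 of 91 genes with an identifier) and the 9 marker lists (40 of 51) were chosen with earlier results of these data known. Named beside the 5 genes were related genes that passed in a comparison, or the 3 with the smallest p where none passed, and for each of the 5 the 3 genes most alike. DFI was taken from the sample labels, which differ slightly from the study's table for 4 Landrace boars. P-values measure the spread between boars, with 1 library each.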

Additional observations from a re-analysis of the deposited data

Results flagged for a closer look

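Of 56 groups of values compared with Dixon's limits, 2 held a boar far from the others, and about 1 in 20 groups would be flagged by chance. GPX3 was at 102 CPM in Landrace low DFI replicate 4, while the other 4 boars of that group were at 26.0 to 37.3 CPM. PRDX2, PRDX3, CAT and FAM213A were not apart in that boar. The summed Sertoli cell markers were at 597 CPM in Duroc high DFI replicate 4, while the other 5 boars of that group were at 340.6 to 399.4 CPM. The same boar had the lowest summed Leydig and spermatid markers of its group (3265 and 9999 CPM) and the lowest PRDX2, PRDX3 and CAT. The part of its cell makeup in these levels was not tested.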

How the results depend on the processing

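The 10 high versus low DFI fold changes of the 5 genes kept their sign in all 150 combinations of gene, breed and alternative. Except for PRDX3 in Landrace and GPX3 in Duroc, the genes were chosen on these differences in the same boars, so a kept sign is no further support. GPX3 in Landrace moved from 1.18 to 1.93 with the number series as a covariate and to 1.93 in the 6 boars of the consecutive series, PRDX3 in Landrace from 1.07 to 0.60 without Landrace high DFI replicate 2, and GPX3 in Duroc from 0.73 to 1.11 without Duroc low DFI replicate 4. PRDX3 in Landrace passed with the likelihood ratio test (1.07) and under no other alternative. The number of genes called depended on the test. In Landrace it was 0 by quasi-likelihood, 1 without a filter, 767 by the likelihood ratio test and 842 by DESeq2, and 0 to 2 with a boar left out (1 without Landrace low DFI replicate 1, 2 without replicate 3). In Duroc it was 2, and 0, 376 and 869, and 0 to 17 with a boar left out (17 without Duroc low DFI replicate 5, 0 without each other boar). Of the related genes the likelihood ratio test and DESeq2 called 7 and 7 in Landrace and 5 and 10 in Duroc. Between breeds at low DFI, 720 genes became 1095 with DESeq2, 362 with only the Landrace boars of other numbers, and 455 to 856 with a boar left out (461 without Landrace low DFI replicate 1, 455 without replicate 5), and the 1 related gene became 2 with DESeq2 or no filter, 0 with the likelihood ratio test or only the Landrace boars of other numbers, and 0 to 2 with a boar left out. At high DFI, 838 genes became 1377 with DESeq2.

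The breed differences at low DFI, none of which passed, changed sign for PRDX2 (0.0074 and 0.046 without Duroc low DFI replicate 1 or 3, range -0.36 to 0.046), CAT (0.018 without Duroc low DFI replicate 3, range -0.21 to 0.018) and GPX3 (0.51 without Landrace low DFI replicate 4, 0.06 and 0.14 without Duroc low DFI replicate 1 or 3, range -0.46 to 0.51). The correlation of FAM213A with DFI was -0.68 to 0.18 with a boar left out, and 0.18 without Duroc high DFI replicate 2. That of CAT was -0.99 (without replicate 3) to -0.24 (without replicate 4), and that of GPX3 -0.72 (without replicate 3) to -0.14 (without replicate 2). The correlation of GPX3 with FAM213A was 0.41 to 0.65. Where no value shows a cause, the cause was not tested. No paired analysis was possible because the labels give boars of different groups no shared numbers. With 4 to 6 boars a group, a missed threshold does not show that levels were alike.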
